A study of Mus musculus with 12 samples.

Results

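Lyve1/Cd163/Cd209f macrophages are the adipose tissue macrophages that carry transcripts of Lyve1, a hyaluronan receptor, Cd163, a scavenger receptor for haemoglobin bound to haptoglobin, and Cd209f, a C-type lectin. They were chosen by raw counts of unique molecular identifiers (UMIs, 1 per captured transcript) in each cell. A chosen cell held at least 1 UMI of the macrophage genes Adgre1 or Csf1r, at least 3 UMIs summed over Lyve1, Cd163 and Cd209f, and 0 UMIs of Gpnmb, Spp1 and Atp6v0d2 (genes of lipid-loaded macrophages), of Mki67 and Top2a (cell division), of Pdgfra (stromal cells) and of Cdh5 (endothelium). Of 126095 cells with 700 to 22000 UMIs, 200 to 6000 genes and under 25% mitochondrial UMIs, 12915 met the rule (10.2%), 4389 in eWAT and 8526 in iWAT. The 12 genes of the rule are not results here, and the levels of the chosen cells against other macrophages are descriptions without a test.

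The cells came from the stromal vascular fraction of epididymal (eWAT) and inguinal (iWAT) fat of male mice aged 12 weeks. The 3 groups were labelled WT-Veh (C57BL/6J mice given the methylcellulose vehicle), ob/ob-Veh (mice homozygous for the Lep ob mutation, Lepob/Lepob, given vehicle) and ob/ob-Rosi (Lepob/Lepob mice given rosiglitazone, an agonist of the nuclear receptor PPARγ). Rosiglitazone was gavaged at 30 mg/kg in the morning and in the evening for 3 days. Each group had 2 libraries in each depot, 12 in all, so the effects within a depot set 2 libraries against 2.

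Macrophages with these receptors lie along blood vessels in many tissues, take up macromolecules and debris from the interstitium and are mostly maintained within the tissue. Adipose tissue also holds macrophages that handle lipid, which carry Trem2, a lipid-sensing receptor, and macrophages that derive from recruited monocytes and present antigen on MHC class II. Leptin-deficient ob/ob mice are a model of obesity and insulin resistance, and rosiglitazone is an insulin sensitiser.

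Per library, 132 to 2760 chosen cells gave 567914 to 9295337 UMIs, and the median chosen cell held 2087.5 to 5118 UMIs, of which 2.25% to 9.55% were mitochondrial. Between 52.1% and 94.4% of chosen cells held at least 1 UMI of Cd79a, Cd3e, Pecam1, Col1a1 or Dcn, genes of B cells, T cells, endothelium and stromal cells, called a foreign UMI here although some macrophages also express Pecam1. The highest shares, 94.4% in both, were in the iWAT libraries labelled ob/ob-Veh. The deposited iWAT tables held no barcode above 22000 UMIs or with 25% or more mitochondrial UMIs, whereas the eWAT tables did. Any pair of libraries shared at most 1.05% of the barcodes of the smaller one. Lep went against the labels in eWAT. Without drug, adipocytes of leptin-deficient mice typically contain more Lep mRNA than lean adipocytes, but over all kept cells Lep per 100 Adipoq UMIs was 28.0 and 42.5 in eWAT under the label WT-Veh, 3.96 and 16.2 under ob/ob-Veh and 240 and 390 under ob/ob-Rosi. In iWAT it was 20.1 and 31.6, 36.4 and 15.1, and 164 and 141, so that the libraries labelled WT-Veh lay within the range of those labelled ob/ob-Veh. Adipoq gave only 11 to 265 UMIs per library, since floating adipocytes are removed from this fraction. Lep itself gave 4 to 277 UMIs per library. Directions are therefore given by label. Levels are UMI counts of the chosen cells scaled to the same total in each library (CPM), and fold changes are log2 values from edgeR's quasi-likelihood test. A gene was called when its adjusted p (Benjamini-Hochberg) did not exceed 0.05 and it changed by 1.1-fold or more. The labels call the libraries of a group biological replicates, which per the study's text are separate mice handled in a single batch, and with 2 libraries a group the exact permutation test of 1 value cannot go below p = 0.33.

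The chosen cells carried the other markers of perivascular macrophages. F13a1, the A chain of coagulation factor XIII, lay between 2161 and 3293 CPM with a median of 3016 CPM, against a median of 505 CPM in macrophages that met the same rule with 0 UMIs of Lyve1, Cd163 and Cd209f (9436 cells, called marker-negative macrophages here). Mrc1, the mannose receptor, lay between 1203 and 3631 CPM with a median of 2396 CPM, against 584 CPM. Both markers of the label thus stood above marker-negative macrophages, while position along a vessel was not measured. Of the selecting genes, Lyve1 had a median of 1348 CPM (717 to 1920), Cd163 of 1189 CPM (714 to 1685) and Cd209f of 671 CPM (284 to 1585).

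The 4 genes furthest above marker-negative macrophages were all lectins. Of 5827 genes compared, 996 were higher in the chosen cells in all 12 libraries. Cd209b, a C-type lectin, was 16.5 times higher, with a mean of 303 CPM against 16.9 CPM. Fcna, the soluble lectin ficolin A, followed at 13.9 times, with 1405 CPM against 108 CPM. The lectins Cd209g and Cd209d stood 13.9 and 11.8 times higher. Ednrb, the endothelin B receptor, was 8.76 times higher, Folr2, a folate receptor, 7.71 times, Ccl8, a chemokine, 7.55 times, and Vsig4, a complement receptor of resident macrophages, 5.82 times. The other genes among the first 15 were C6 (a component of terminal complement), Ltc4s (leukotriene C4 synthase), Cbr2 (a carbonyl reductase), Pla2g2d (a secreted phospholipase), F13a1, Fxyd2 (a regulator of the sodium pump) and Chp2 (a calcium-binding protein), at 5.22 to 8.10 times. These ratios describe a population picked by related lectin genes.

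**Figure D1:**
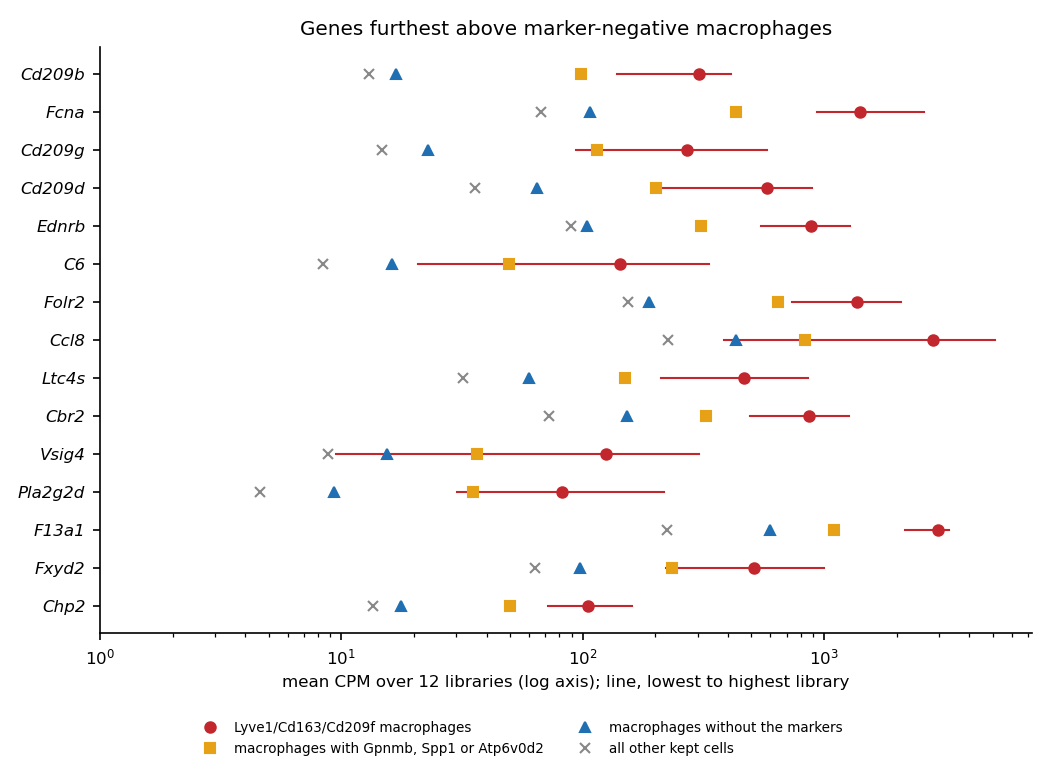
Mean CPM over 12 libraries (log axis) of the 15 genes furthest above marker-negative macrophages, in the chosen cells (circles, with a line from the lowest to the highest library), in macrophages with Gpnmb, Spp1 or Atp6v0d2 (squares), in marker-negative macrophages (triangles) and in all other kept cells (crosses). Cd209b leads at 303 CPM against 16.9 CPM, and on this log axis the widest ranges across libraries are those of Vsig4 (9.52 to 303 CPM) and C6 (20.8 to 335 CPM).

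Within the chosen cells the 3 selecting receptors overlapped only in part. Lyve1 was detected in 75.8% to 90.2% of the cells of a library, Cd163 in 55.2% to 77.9% and Cd209f in 29.6% to 87.3%. All 3 were detected together in 17.4% to 55.7% of the cells of a library. As these genes chose the cells, the shares describe the selection only.

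Macrophages with more than 10 selecting UMIs held less Ccr2, Ear2 and MHC class II transcript, and more F13a1, Folr2 and Timd4, than those with 1. The following medians over libraries describe the threshold and were not tested. Just outside it, at 2 UMIs (1826 cells), F13a1 was at 1960 CPM and Folr2 at 742 CPM, and just inside, at 3 UMIs (1479 cells), at 2362 and 828 CPM. Across the same step Ccr2, the receptor that draws monocytes into tissue, went from 236 to 94.0 CPM, Ear2, an eosinophil-associated ribonuclease also found in monocytes, from 153 to 56.5 CPM, and Lyz1, a lysozyme, from 413 to 138 CPM. Cells above 10 UMIs (5333 cells) held 3356 CPM of F13a1, 1581 CPM of Folr2 and 76.6 CPM of Timd4, the phosphatidylserine receptor of long-lived resident macrophages. H2-Aa, an MHC class II chain, went from 5025 CPM at 1 UMI (3129 cells) to 1610 CPM above 10 UMIs, and Cd74, the invariant chain, from 9244 to 3589 CPM. Lyz1 did not go evenly: it was at 54.7 CPM at 4 to 5 UMIs and at 82.8 CPM above 10. Mgl2 was highest at 4 to 5 UMIs, at 666 CPM, and at 494 CPM above 10. The median cell held 2502 UMIs in all at 1 selecting UMI, 2055 at 2, 2081 at 3 and 4678 above 10, and the part of depth in these values was not tested.

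**Figure D2:**
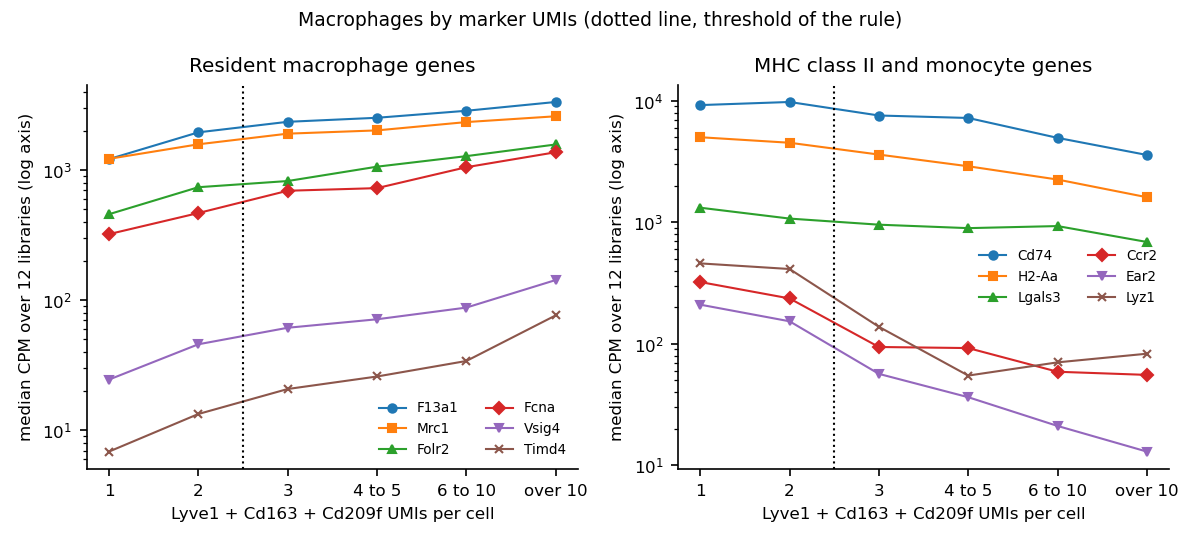
Median CPM over 12 libraries (log axis) by the number of Lyve1, Cd163 and Cd209f UMIs in a macrophage, for resident macrophage genes (left) and for MHC class II and monocyte genes (right). The dotted line is the threshold of the rule, and Ear2 goes from 153 CPM at 2 UMIs to 56.5 CPM at 3 UMIs while F13a1 goes from 1960 to 2362 CPM.

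The chosen cells were also split by Lyve1. In 12 of 12 libraries the cells with a Lyve1 UMI held less Cd74, H2-Aa, H2-Ab1 and H2-Eb1 than those without, with median ratios of 0.443, 0.419, 0.427 and 0.406. Ear2 was also lower in 12 of 12 libraries (ratio 0.345) and Ccr2 in 11 (ratio 0.378). Timd4 was higher in the Lyve1 cells in 12 of 12 libraries (ratio 4.03), as were Fcna (3.30), Vsig4 (3.08), Folr2 (1.79) and F13a1 (1.62). As Lyve1 chose the cells, no test was applied.

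The number of chosen cells differed most in eWAT. They made up 6.24% and 3.65% of kept cells in eWAT under the label WT-Veh, 15% and 15.6% under ob/ob-Veh and 5.47% and 1.31% under ob/ob-Rosi. Both ob/ob-Veh values stood above all 4 others. In an edgeR fit on cell numbers over 8 cell classes, neither difference passed: the ob/ob effect (ob/ob-Veh against WT-Veh) was a log2 change of 1.63 (SE 0.716, adjusted p = 0.146) and the Rosi effect (ob/ob-Rosi against ob/ob-Veh) -2.18 (SE 0.730, adjusted p = 0.0627). Both passed with the rule applied to cells thinned to 2000 UMIs, at 1.32 (adjusted p = 0.0334) and -2.05 (adjusted p = 0.00259). That setting left out cells with fewer UMIs, which were 7169 and 1547, 1902 and 1635, and 4016 and 1784 cells in the 3 groups. Per macrophage barcode, which are the cells with Adgre1 or Csf1r, the shares were 10.5% and 5.94%, 38.3% and 36.2%, and 8.99% and 2.05%. The fit on macrophage barcodes left those with Mki67, Top2a, Pdgfra or Cdh5 out of the total. Both changes passed in it, at 2.17 (adjusted p = 0.0152) and -2.78 (adjusted p = 0.00357). Its total included 3571 and 1795, 195 and 278, and 2258 and 3440 macrophages with Gpnmb, Spp1 or Atp6v0d2 in the 3 groups. The ob/ob effect passed when either ob/ob-Rosi library was left out (1.63, adjusted p = 0.00291). Under the same omissions the Rosi effect was -3.55 without replicate 1 (adjusted p = 8.36e-05) and -1.49 without replicate 2 (adjusted p = 0.0324), but there the group held 1 library, whose spread was taken from the remaining groups. It did not pass when any of the 4 other libraries was left out.

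The exclusion of Gpnmb, Spp1 and Atp6v0d2 removed fewer cells in the eWAT libraries labelled ob/ob-Veh than in the others. Before the exclusions, the eWAT libraries held 1803 and 818, 1780 and 1723, and 1039 and 631 macrophages with at least 3 selecting UMIs, of which 718 and 547, 141 and 209, and 446 and 476 were removed for a UMI of those 3 genes. Without any of the 4 exclusions, a setting chosen after seeing the data, the Rosi effect on cell numbers was -1.27 (adjusted p = 0.0226) and the ob/ob effect 0.743 (adjusted p = 0.136). No fit dropped the exclusion of Gpnmb, Spp1 and Atp6v0d2 alone, so its own part was not tested. In iWAT the chosen cells made up 3.29% and 18.2% of kept cells under the label WT-Veh, 17.6% and 15.2% under ob/ob-Veh and 10.9% and 15.8% under ob/ob-Rosi, and the groups overlapped. The changes there were 0.614 (SE 0.674, adjusted p = 0.372) and -0.301 (SE 0.672, adjusted p = 0.658). The ob/ob value turned on the WT-Veh libraries: it was -0.147 without WT-Veh replicate 1 (adjusted p = 0.897) and 2.32 without WT-Veh replicate 2 (adjusted p = 0.0156).

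**Figure D3:**
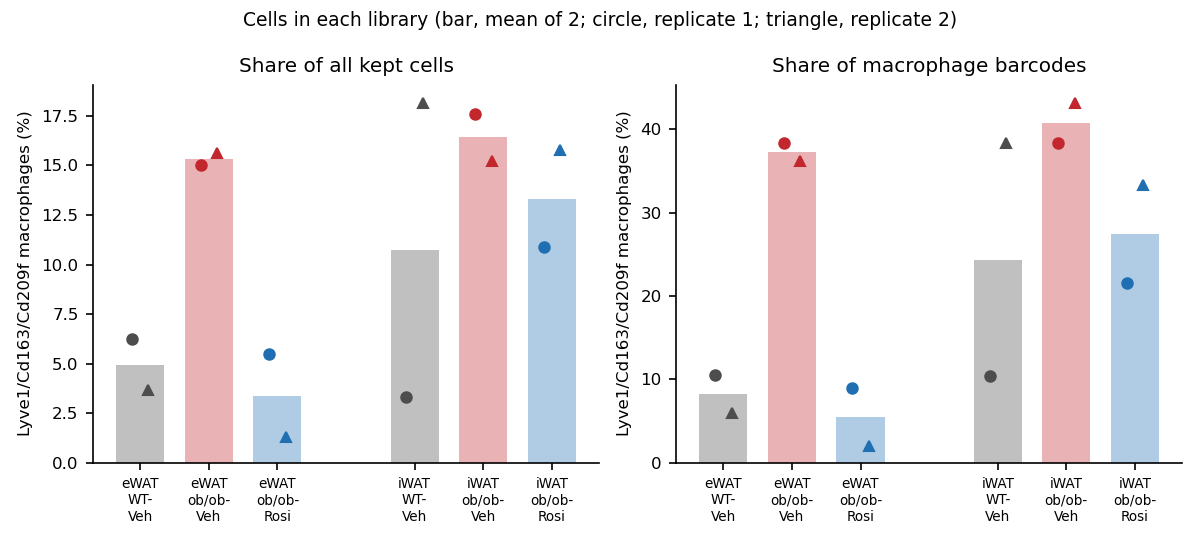
Chosen cells as a percentage of all kept cells (left) and of macrophage barcodes (right) in each library, with the mean of 2 as a bar and the replicates as a circle and a triangle. In eWAT both libraries labelled ob/ob-Veh, at 38.3% and 36.2% of macrophage barcodes, sit above the 4 others, while in iWAT the groups overlap in the share of kept cells.

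In eWAT, 186 genes (1.95% of 9542 tested) were higher and 188 (1.97%) lower in the chosen cells labelled ob/ob-Veh than in those labelled WT-Veh. The Rosi effect called 76 genes higher (0.796%) and 47 lower (0.493%). Both effects use the ob/ob-Veh libraries, so they are given side by side. Scaled by library size alone, the splits were 231 higher and 137 lower in ob/ob against 42 and 47 in Rosi, and the median over all genes moved by 0.098 and -0.0906. The count of calls depended on single libraries: for the ob/ob effect it was 36 without WT-Veh replicate 1, 61 without WT-Veh replicate 2, 119 without ob/ob-Veh replicate 1, 135 without ob/ob-Veh replicate 2, 582 without ob/ob-Rosi replicate 1 and 587 without ob/ob-Rosi replicate 2. For the Rosi effect the corresponding counts were 52, 47, 56, 80, 220 and 38.

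Ccl8, Vsig4 and C6, all among the genes that set the population apart, were far lower in the eWAT libraries labelled ob/ob-Veh than in both other groups. Ccl8, a chemokine for monocytes, eosinophils and T cells (chromosome 11, 82115185 to 82116799, plus strand, GRCm38), was at 4817 and 4941 CPM under the label WT-Veh, 385 and 436 CPM under ob/ob-Veh and 4765 and 2549.7 CPM under ob/ob-Rosi. The ob/ob-Veh values lay far below both other groups, with no overlap. The ob/ob effect was -3.67 (SE 0.356, adjusted p = 0.000154) and the Rosi effect 3.25 (SE 0.349, adjusted p = 0.000406). All other kept cells held a mean of 281, 16.3 and 216 CPM in the 3 groups, in the same order. After thinning each cell to 700 UMIs, Ccl8 was detected in 72.5% and 70.3% of chosen cells under the label WT-Veh, 16.3% and 16.0% under ob/ob-Veh and 68.6% and 51.5% under ob/ob-Rosi, and in 1.28% to 13.8% of Pdgfra barcodes, which should lack it. Vsig4, which binds complement C3 fragments (chromosome X, 96247203 to 96293438, minus strand), followed the same order, at 281 and 303 CPM under the label WT-Veh, 19.9 and 29.9 CPM under ob/ob-Veh and 193 and 202 CPM under ob/ob-Rosi. Its ob/ob effect was -3.64 (SE 0.275, adjusted p = 3.68e-05) and its Rosi effect 3.08 (SE 0.274, adjusted p = 0.0002). C6, which joins the membrane attack complex, was at 143 and 164 CPM under the label WT-Veh, 25.4 and 20.8 CPM under ob/ob-Veh and 134 and 54.6 CPM under ob/ob-Rosi, with effects of -2.82 (adjusted p = 0.00109) and 2.18 (adjusted p = 0.0108). For these 3 genes every library labelled ob/ob-Rosi lay above those labelled ob/ob-Veh and below those labelled WT-Veh. Ccl8 and Vsig4 kept both calls in all 20 alternatives.

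Mgl2, Timd4, Slc40a1, Mmp9 and Pla2g2d went the other way. Mgl2, a galactose-binding lectin (chromosome 11, 70130329 to 70137550, plus strand), was at 136 and 106 CPM under the label WT-Veh, 759 and 968 CPM under ob/ob-Veh and 166 and 245 CPM under ob/ob-Rosi. It rose in the ob/ob effect, 2.72 (SE 0.298, adjusted p = 0.000335), and fell in the Rosi effect, -1.99 (SE 0.292, adjusted p = 0.00626), without overlap. Timd4, which binds apoptotic cells, was at 33 and 23.4 CPM under the label WT-Veh, 74 and 76.5 CPM under ob/ob-Veh and 24.3 and 10.6 CPM under ob/ob-Rosi, with effects of 1.29 (adjusted p = 0.0321) and -1.86 (adjusted p = 0.0183). Slc40a1, the iron exporter ferroportin, was at 27.2 and 56.4 CPM under the label WT-Veh, 141 and 87.3 CPM under ob/ob-Veh and 33.1 and 24.7 CPM under ob/ob-Rosi, with effects of 1.41 (adjusted p = 0.0434) and -1.85 (adjusted p = 0.0378). Both lost both calls when WT-Veh replicate 1 or WT-Veh replicate 2 was left out, and the ob/ob call was also lost without ob/ob-Veh replicate 1 for both and without ob/ob-Veh replicate 2 for Timd4. Mmp9, the gelatinase B that degrades collagen and elastin (chromosome 2, 164940780 to 164955850, plus strand), was at 29.2 and 44.3 CPM under the label WT-Veh, 399.6 and 464 CPM under ob/ob-Veh and 47.3 and 22.9 CPM under ob/ob-Rosi. Its ob/ob effect was 3.48 (SE 0.327, adjusted p = 0.000152) and its Rosi effect -3.43 (SE 0.337, adjusted p = 0.000227). Mmp9 was detected after thinning in 23.3% of the chosen cells in both libraries labelled ob/ob-Veh and in 0.76% to 3.39% in the other 4, against 0.05% to 1.48% of Pdgfra barcodes. Pla2g2d, a phospholipase with anti-inflammatory roles, was at 30.1 and 70.1 CPM under the label WT-Veh, 217 and 205 CPM under ob/ob-Veh and 35.8 and 42.3 CPM under ob/ob-Rosi, with effects of 2.03 (adjusted p = 0.00643) and -2.37 (adjusted p = 0.00646). Ccl24, an eosinophil chemokine, rose in the ob/ob effect, 1.59 (SE 0.258, adjusted p = 0.00643), a call that was lost without WT-Veh replicate 1 or WT-Veh replicate 2. Mgl2 and Mmp9 kept both calls in all 20 alternatives.

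Of 35 tested genes of the perivascular and resident list, 3 were called higher and 2 lower in the ob/ob effect, and 2 higher and 3 lower in the Rosi effect, with a median of -0.14 for the Rosi effect against 0.01 over all genes. The list therefore did not move as a block. Among the members that passed no test, Folr2 was at 1369 and 1407 CPM under the label WT-Veh, 1155 and 1818 CPM under ob/ob-Veh and 1288 and 1395 CPM under ob/ob-Rosi, with an ob/ob effect of -0.00 (adjusted p = 0.996). F13a1 had an effect of -0.24 (adjusted p = 0.661) and Mrc1 of -0.04 (adjusted p = 0.967), and Cd209b, Gas6, Hmox1, Ednrb, Cbr2, Stab1, Igf1 and Selenop were not called in any of the 4 main comparisons either.

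MHC class II genes, which present antigen, stood higher in the eWAT cells labelled ob/ob-Veh. Of 10 tested MHC class II genes, 7 rose and 1, Ctss, fell in the ob/ob effect, with a median of 2.00 against -0.01 over all genes. H2-Aa (chromosome 17, 34282744 to 34287823, minus strand) was at 607 and 1027 CPM under the label WT-Veh, 3634 and 4698 CPM under ob/ob-Veh and 942 and 2083 CPM under ob/ob-Rosi, and its ob/ob effect was 2.26 (SE 0.392, adjusted p = 0.00904). Ciita, the transactivator that switches these genes on, was at 7.78 and 8.86 CPM under the label WT-Veh, 55.9 and 33.2 CPM under ob/ob-Veh and 18.9 and 8.8 CPM under ob/ob-Rosi, with an ob/ob effect of 2.34 (adjusted p = 0.00819). In the Rosi effect 0 of the 10 genes passed in either direction, with a median of -1.22, and H2-Aa gave -1.37 (adjusted p = 0.102). Summed over the list, the chosen cells held 4423 and 6574, 17086 and 21881, and 5751 and 12625 CPM, whereas all other kept cells held 9882 and 12373, 7423 and 7671, and 11328 and 15239 CPM. The 7 calls became 0 without WT-Veh replicate 1, 0 without WT-Veh replicate 2 and 4 without ob/ob-Veh replicate 2, while leaving out cells that held a foreign UMI left 5 of 7 tested genes higher. Markers of other cells moved with these genes. Of 8 dendritic cell markers 3 could be tested, and 2 of these rose in the ob/ob effect, the lectin Cd209a (1.89 (adjusted p = 0.0201)) and the lysosomal amidase Naaa (1.08 (adjusted p = 0.0319)), while Cd209a fell in the Rosi effect (-1.78 (adjusted p = 0.0498)). Their summed level was 149 and 125, 392 and 377, and 187 and 119.7 CPM in the chosen cells and 123 and 155, 295 and 288, and 155 and 132 CPM in all other kept cells. The dendritic cell markers Xcr1, Clec9a and Flt3 gave 0 to 29 UMIs per library. All 3 were above 0 in both libraries labelled ob/ob-Veh and in 1 library of each other group. Zbtb46, another of these markers, gave 17 and 12, 83 and 114, and 10 and 4 UMIs. These counts are not scaled to the UMIs of each library. The chosen cells labelled ob/ob-Veh held 5472828 and 6382771 UMIs in all, against 567914 to 2057624 in the 4 others. Of 10 adipocyte transcripts 4 could be tested and 3 of these rose, with sums of 27.2 and 41.9, 125 and 104, and 41.9 and 31.7 CPM. The median mitochondrial share was 6.16% and 5.93% in the cells labelled ob/ob-Veh and 3.24% to 5.39% in the 4 others. The part of other cells and of RNA quality in the MHC class II values was not tested.

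The Trem2 programme was lower in the eWAT cells labelled ob/ob-Veh and higher in those labelled ob/ob-Rosi. Of 25 tested members outside the rule, 15 fell in the ob/ob effect and 14 rose in the Rosi effect, with 0 in the opposite direction and medians of -1.41 and 1.34. Because cells with Gpnmb, Spp1 or Atp6v0d2 had been left out, these values describe chosen cells without those 3 transcripts. Trem2 (chromosome 17, 48346401 to 48354147, plus strand) was at 670.2 and 776 CPM under the label WT-Veh, 71.6 and 78.6 CPM under ob/ob-Veh and 462 and 833 CPM under ob/ob-Rosi, and its effects were -3.36 (SE 0.322, adjusted p = 0.000152) and 3.19 (SE 0.321, adjusted p = 0.000264). All other kept cells held 1022, 35.2 and 1060.3 CPM of Trem2 in the 3 groups, and after thinning it was detected in 15.4% to 20.5% of Pdgfra barcodes of the libraries labelled WT-Veh, which should lack it, against 35.8% and 43.2% of chosen cells. Fabp5, a fatty acid binding protein, was at 229 and 245 CPM under the label WT-Veh, 14.1 and 20.7 CPM under ob/ob-Veh and 217 and 239 CPM under ob/ob-Rosi, with effects of -3.86 (adjusted p = 3.68e-05) and 3.80 (adjusted p = 5.33e-05). Its mean in all other kept cells was 1164, 114 and 1008 CPM, above the chosen cells in each group. Lgals3, galectin 3, followed at 1286 and 1569 CPM under the label WT-Veh, 213 and 288 CPM under ob/ob-Veh and 1349 and 1999 CPM under ob/ob-Rosi, with effects of -2.61 (adjusted p = 0.000632) and 2.84 (adjusted p = 0.000441). Summed over the list, the chosen cells held 69033 and 71977, 27805 and 27694, and 61730 and 63349 CPM, and all other kept cells 65421 and 59069, 10601 and 18392, and 56388 and 60451 CPM. The part of RNA from other cells in these values was not tested. Without cells that held a foreign UMI, 13 of 24 members fell in the ob/ob effect and 16 of 24 rose in the Rosi effect. The 15 ob/ob calls were 6 without WT-Veh replicate 1, 7 without WT-Veh replicate 2 and 10 without ob/ob-Veh replicate 1, and the 14 Rosi calls were 7 without either WT-Veh library and 8 without ob/ob-Rosi replicate 2 or ob/ob-Veh replicate 1. Trem2, Fabp5 and Lgals3 kept both calls in all of these. In a direct test between classes, the ob/ob effect of Trem2 in the chosen cells minus that in marker-negative macrophages was -0.09 (adjusted p = 0.95), which was not called.

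Chemokines and monocyte genes split. Of 19 chemokine genes, 3 rose and 4 fell in the ob/ob effect. Cxcl12, which retains CXCR4-bearing cells, was at 25.3 and 23.4 CPM under the label WT-Veh, 122 and 84.4 CPM under ob/ob-Veh and 31.7 and 21.1 CPM under ob/ob-Rosi, with effects of 1.99 (adjusted p = 0.00395), lost without WT-Veh replicate 1 or WT-Veh replicate 2, and -1.81 (adjusted p = 0.0148). Ccl4, an inflammatory chemokine, was at 109.8 and 202 CPM under the label WT-Veh, 27.4 and 42.5 CPM under ob/ob-Veh and 135 and 96.8 CPM under ob/ob-Rosi, with effects of -2.24 (adjusted p = 0.00308) and 1.85 (adjusted p = 0.018). Of 8 monocyte genes, 3 rose and 1 fell in the ob/ob effect: Ccr2 was at 37.4 and 16.1 CPM under the label WT-Veh, 139.6 and 175 CPM under ob/ob-Veh and 62.8 and 59.9 CPM under ob/ob-Rosi (2.39 (adjusted p = 0.00283)) and Ear2 at 17 and 12.9 CPM under the label WT-Veh, 85.5 and 82.1 CPM under ob/ob-Veh and 5.4 and 3.52 CPM under ob/ob-Rosi (2.36 (adjusted p = 0.000585)). In all other kept cells Ear2 was higher than in the chosen cells, at 81.6, 145 and 47 CPM. Lyz1 rose from 24.3 and 32.2 CPM to 326 and 255 CPM (3.29 (adjusted p = 0.000234)), beside 68.8, 532 and 109 CPM in all other kept cells. Ribosomal protein genes (0 of 82) and nuclear genes of the respiratory chain (0 of 74) gave no call in the ob/ob effect, with medians of -0.50 and -0.62. Il6, an inflammatory cytokine, was at 5.83 and 0 CPM under the label WT-Veh, 39.7 and 44.3 CPM under ob/ob-Veh and 5.4 and 0 CPM under ob/ob-Rosi, with an ob/ob effect of 3.45 (adjusted p = 0.00819). Of 24 genes of TNF, IL-1 and NF-kB signalling, 3 rose and 1 fell. Of the genes called higher in the eWAT ob/ob effect, 114 of 186 were at or above the ob/ob-Veh-labelled level of all other kept cells, and of those called lower 70 of 188 were at or above it in the libraries labelled WT-Veh. The same share over all tested genes was not counted.

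**Figure D4:**
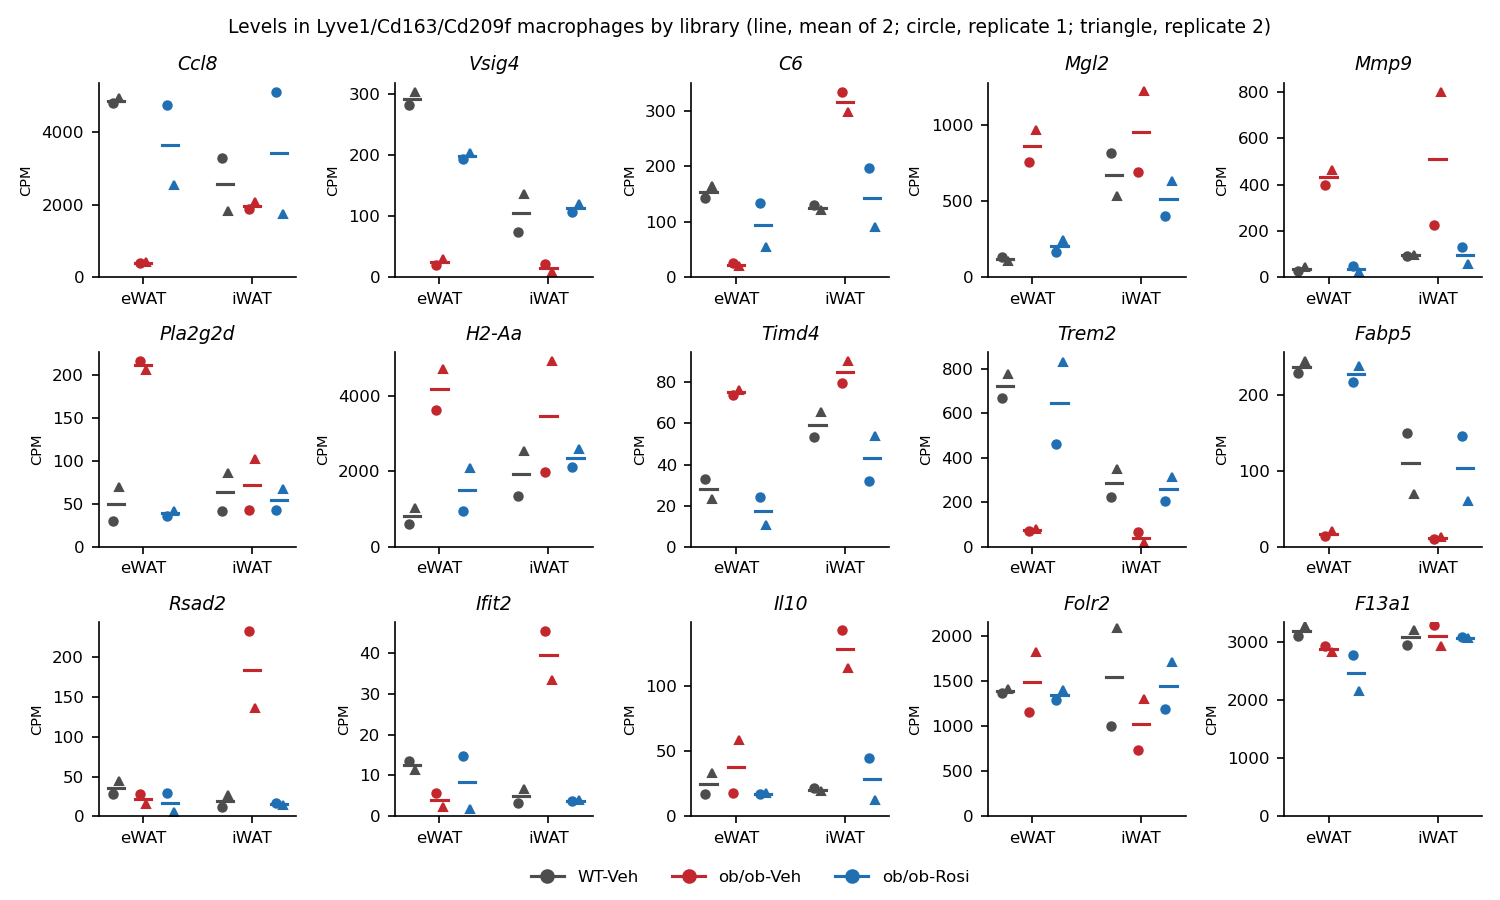
CPM of 15 genes in the chosen cells of each library (line, mean of 2; circle, replicate 1; triangle, replicate 2), with eWAT on the left and iWAT on the right of each panel. Among the eWAT libraries, those labelled ob/ob-Veh sit lowest for Ccl8, Vsig4 and C6 and highest for Mgl2, Mmp9 and H2-Aa. Rsad2, Ifit2 and Il10 stand out in the iWAT libraries labelled ob/ob-Veh, and the groups overlap for Folr2.

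A fit over both classes tested where the eWAT effects in the chosen cells differed from those in marker-negative macrophages. The difference of the ob/ob effect between the classes was called higher for 248 of 11183 genes (2.22%) and lower for 101 (0.903%), and that of the Rosi effect for 106 (0.948%) and 233 (2.08%). The ob/ob effect of Mgl2 was higher in the chosen cells, by 2.26 (SE 0.307, adjusted p = 0.00011), as were those of H2-Aa (2.28 (adjusted p = 0.000148)), Timd4 (2.31 (adjusted p = 0.00187)) and Slc40a1 (1.92 (adjusted p = 0.0121)). Marker-negative macrophages held a mean of 4331, 4782 and 5338 CPM of H2-Aa in the 3 groups. The steepest difference among the named chemokines was that of Cxcl12, 3.21 (SE 0.377, adjusted p = 1.85e-05). Folr2, not called in the chosen cells, lay at 256, 65.7 and 221 CPM in marker-negative macrophages, and the difference was 2.33 (adjusted p = 0.000199). Pf4, the chemokine platelet factor 4, Stab1, an endocytic receptor, and Igf1, a growth factor, all chosen after their values were seen, differed in the same direction, by 2.24 (adjusted p = 0.000148), 1.62 (adjusted p = 0.00326) and 1.78 (adjusted p = 0.000536). In marker-negative macrophages of the 3 groups Csf1r was at 711 and 769.5, 340 and 465.5, and 809 and 763 CPM. Adgre1 was there at 439 and 385, 140.5 and 205, and 523 and 285 CPM. Csf1r in the chosen cells was at 1212 and 1622, 1199 and 1471, and 1246 and 1528 CPM. Adgre1 in the chosen cells was at 369 and 418, 390 and 443, and 479 and 419 CPM. The part of the make-up of the marker-negative class in these differences was not tested. The ob/ob effect was lower in the chosen cells for Fabp5, by -1.27 (adjusted p = 0.0114), for Clec4d, a C-type lectin of inflammatory myeloid cells, by -1.75 (adjusted p = 0.00111), and for Ccl4, by -1.41 (adjusted p = 0.0114). The difference was not called for Ccl8 (1.42 (adjusted p = 0.0509)) or for Vsig4 (-0.00 (adjusted p = 0.999)). The number of genes called for the ob/ob effect was 175 without WT-Veh replicate 1 and 196 without ob/ob-Veh replicate 1. For the Rosi effect it was 27 without ob/ob-Rosi replicate 1, 189 without ob/ob-Veh replicate 1 and 185 without ob/ob-Rosi replicate 2.

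In iWAT the calls were more numerous and rested on single libraries. Of 11193 genes tested, 338 (3.02%) were higher and 302 (2.7%) lower in the ob/ob effect, and 714 (6.38%) were higher and 468 (4.18%) lower in the Rosi effect. Scaled by library size alone, the splits were 497 and 157 and 491 and 933, with the median over all genes moved by 0.215 and -0.225. The ob/ob count was 1723 without WT-Veh replicate 1, 405 without WT-Veh replicate 2, 30 without ob/ob-Veh replicate 1 and 72 without ob/ob-Veh replicate 2. The Rosi count was 2329 without WT-Veh replicate 1, 2328 without WT-Veh replicate 2, 2 without ob/ob-Veh replicate 1, 0 without ob/ob-Veh replicate 2 and 26 without ob/ob-Rosi replicate 2. With DESeq2 the ob/ob effect had 432 genes higher and 627 lower.

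Interferon-stimulated genes were higher in the iWAT cells labelled ob/ob-Veh. Interferons bind cell surface receptors whose signal drives genes with a short tandem element in their promoters, searched here on both strands as GAAA, then any 2 bases, then GAAA again. The promoters of 3 genes are printed here, each 250 bases before the gene start in RefSeq (GRCm38.p6), read along the gene's strand, with the element in capitals where either strand holds it. They were picked as the called members that contain it, and Rsad2 is the one with the largest change.
Rsad2 (chr12:26456453-26456702, minus strand): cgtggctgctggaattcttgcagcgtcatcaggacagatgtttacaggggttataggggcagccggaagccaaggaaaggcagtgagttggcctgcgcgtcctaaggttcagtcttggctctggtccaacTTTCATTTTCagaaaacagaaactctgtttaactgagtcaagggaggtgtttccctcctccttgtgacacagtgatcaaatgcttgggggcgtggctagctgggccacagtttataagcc
Stat2 (chr10:128270248-128270497, plus strand): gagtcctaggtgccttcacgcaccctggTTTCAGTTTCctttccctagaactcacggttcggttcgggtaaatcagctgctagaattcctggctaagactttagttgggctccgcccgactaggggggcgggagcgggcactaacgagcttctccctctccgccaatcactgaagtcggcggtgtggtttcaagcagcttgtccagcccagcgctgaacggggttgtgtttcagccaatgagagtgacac
Ifit1 (chr19:34640639-34640888, plus strand): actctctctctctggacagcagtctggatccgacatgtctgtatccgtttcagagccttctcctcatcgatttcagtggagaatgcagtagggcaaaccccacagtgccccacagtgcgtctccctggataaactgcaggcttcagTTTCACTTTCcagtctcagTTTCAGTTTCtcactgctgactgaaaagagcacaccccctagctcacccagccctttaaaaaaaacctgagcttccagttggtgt
Read along the gene, the element begins 120 bases before the start in Rsad2, 222 bases before it in Stat2 and, for the nearer of 2 copies, 85 bases before it in Ifit1. Of 27025 genes with such a promoter, 936 hold it (3.46%), against 9 of the 18 tested interferon-stimulated genes that have one (50%). Of the 6 called in the ob/ob effect that have a promoter, 2 hold it (33.3%), and of the 8 called in the Rosi effect 3 do (37.5%). A match describes letters and is no measured binding.

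Of 25 interferon-stimulated genes tested in iWAT, 7 rose and 0 fell in the ob/ob effect, with a median of 1.28 against -0.03 over all genes. In the Rosi effect 12 fell and 0 rose, with a median of -1.59. In the same ob/ob effect 12 of 13 stromal markers rose, and the chosen cells labelled ob/ob-Veh held the highest mitochondrial shares of iWAT (9.55% and 8.27%) and the most cells with a foreign UMI (94.4% in both). Without those cells 5 of 23 interferon-stimulated genes rose in the ob/ob effect and 8 fell in the Rosi effect. Rsad2, the antiviral protein viperin, was at 11.8 and 27.3 CPM under the label WT-Veh, 233 and 136 CPM under ob/ob-Veh and 17.4 and 14.7 CPM under ob/ob-Rosi. Both libraries labelled ob/ob-Veh stood above the 4 others, and the effects were 2.96 (SE 0.431, adjusted p = 0.00835) and -3.31 (SE 0.436, adjusted p = 0.00936). Ifit2, which inhibits translation of viral RNA, was at 3.17 and 6.71 CPM under the label WT-Veh, 45.3 and 33.3 CPM under ob/ob-Veh and 3.74 and 3.98 CPM under ob/ob-Rosi, with effects of 2.64 (adjusted p = 0.00842) and -3.12 (adjusted p = 0.00855). Stat2, a signal transducer of interferon receptors, was at 35.3 and 33.1 CPM under the label WT-Veh, 114 and 103 CPM under ob/ob-Veh and 28 and 32.3 CPM under ob/ob-Rosi, with effects of 1.46 (adjusted p = 0.017) and -1.62 (adjusted p = 0.0119). Ifit1, another of that family, was at 3.62 and 15.2 CPM under the label WT-Veh, 75.7 and 34.8 CPM under ob/ob-Veh and 6.64 and 4.84 CPM under ob/ob-Rosi. It missed the threshold in the ob/ob effect (adjusted p = 0.0572) and fell in the Rosi effect, -3.08 (adjusted p = 0.0185). Ifi213, a DNA-sensor family member outside the list, was at 2.26 and 5.48 CPM under the label WT-Veh, 90.3 and 77.7 CPM under ob/ob-Veh and 3.53 and 2.37 CPM under ob/ob-Rosi, with effects of 4.04 (adjusted p = 0.00242) and -4.64 (adjusted p = 0.00699), and its ob/ob call held in all 20 alternatives. Summed over the list, the chosen cells held 2225 and 2909, 3537 and 3430.5, and 2627 and 3228 CPM in the 3 groups. All other kept cells held 1383 and 1936, 2871 and 2697, and 2200 and 2282 CPM. The list sum was thus highest under ob/ob-Veh in the other cells too. For Rsad2 alone, all other kept cells held a mean of 16.8, 51.3 and 71.6 CPM, highest under ob/ob-Rosi, unlike the chosen cells. In marker-negative macrophages Rsad2 was at 4.33, 59.9 and 9.51 CPM. After thinning it was detected in 9.55% and 7.47% of chosen cells labelled ob/ob-Veh and 0.83% to 1.4% of the others, against 2.67% and 1.82% of Pdgfra barcodes labelled ob/ob-Veh. The 7 ob/ob calls were 0 without ob/ob-Veh replicate 1, 2 without ob/ob-Veh replicate 2 and 11 without WT-Veh replicate 2. The 12 Rosi calls were 0 without either ob/ob-Veh library (replicate 1 or 2) and 0 without replicate 2 of ob/ob-Rosi. Among the named genes of iWAT, most calls of both effects, here and in the lists that follow, were lost without one or the other ob/ob-Veh library.

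In eWAT the same list had 2 genes higher and 3 lower in the ob/ob effect, with a median of -0.44. The ob/ob effects differed between depots for Rsad2, by 3.73 (SE 0.714, adjusted p = 0.0408) for iWAT minus eWAT, and for Ifit2, by 4.38 (adjusted p = 0.024). Rsad2 was at 28.2 and 44.3 CPM and 28.5 and 15.4 CPM in the eWAT libraries labelled WT-Veh and ob/ob-Veh, which overlap. Within iWAT, Il10, an anti-inflammatory cytokine, was also higher in the cells labelled ob/ob-Veh. It was at 21.7 and 19.3 CPM under the label WT-Veh, 142 and 114 CPM under ob/ob-Veh and 44.4 and 12.8 CPM under ob/ob-Rosi. Its effects in iWAT were 2.44 (adjusted p = 0.0302) and -1.98 (adjusted p = 0.035). Il1r2, the decoy receptor of IL-1, was at 6.34 and 1.57 CPM under the label WT-Veh, 63.7 and 47.3 CPM under ob/ob-Veh and 1.87 and 2.26 CPM under ob/ob-Rosi, with an ob/ob effect of 3.95 (adjusted p = 0.00677), but all other kept cells held 15.3, 499 and 26.3 CPM of it. Of 15 MHC class I genes, 2 rose in the ob/ob effect, and in the Rosi effect 1 rose and 7 fell. H2-Q7, a class I chain, was at 38 and 29.8 CPM under the label WT-Veh, 68.1 and 103 CPM under ob/ob-Veh and 19.5 and 17.5 CPM under ob/ob-Rosi, with effects of 1.13 (adjusted p = 0.048) and -1.98 (adjusted p = 0.011). Of 11 MHC class II genes, 0 passed in either iWAT effect, where 7 of 10 rose in the eWAT ob/ob effect. The H2-Aa depot difference was -1.66 (adjusted p = 0.383).

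Ribosomal protein and respiratory chain genes were lower in the iWAT cells labelled ob/ob-Veh. Of 83 ribosomal protein genes, 46 fell in the ob/ob effect and 70 rose in the Rosi effect, with medians of -1.66 and 1.91. Rpl15, of the large ribosomal subunit, was at 595 and 1111 CPM under the label WT-Veh, 128 and 243 CPM under ob/ob-Veh and 849.7 and 1397 CPM under ob/ob-Rosi, with effects of -2.43 (adjusted p = 0.0255) and 2.84 (adjusted p = 0.0151). The list summed to 96373 and 140800, 40346 and 58055, and 121220 and 165830 CPM in the chosen cells, and to 170480 and 183910, 88143 and 92230, and 146710 and 191310 CPM in all other kept cells. Of 75 nuclear respiratory chain genes, 19 fell in the ob/ob effect and 49 rose in the Rosi effect, with medians of -1.10 and 1.46, as for Atp5g1, a subunit of ATP synthase, at 127 and 186 CPM under the label WT-Veh, 39.9 and 51.7 CPM under ob/ob-Veh and 158 and 215 CPM under ob/ob-Rosi (-2.00 (adjusted p = 0.0126) and 2.26 (adjusted p = 0.011)). The calls of both lists became 0 in the ob/ob effect without ob/ob-Veh replicate 1 or ob/ob-Veh replicate 2, and 0 in the Rosi effect without either of these or without ob/ob-Rosi replicate 2. Without WT-Veh replicate 2, 10 ribosomal and 3 respiratory chain genes fell in the ob/ob effect. Without WT-Veh replicate 1 51 respiratory chain genes fell, and without ob/ob-Rosi replicate 1 10 did. The chosen cells labelled ob/ob-Veh also held the highest median mitochondrial share in iWAT (9.55% and 8.27%, against 2.25% to 7.61%) and 94.4% of them held a foreign UMI. The part of RNA quality and of RNA from other cells in these values was not tested.

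Stromal transcripts moved as strongly. Of 13 stromal markers, 12 rose in the ob/ob effect and 0 fell, with a median of 2.32, and 1 rose and 7 fell in the Rosi effect. Their sum in the chosen cells was 1095 and 1144, 6396 and 5968, and 2168 and 2432 CPM, and in all other kept cells 9437 and 28375, 55983 and 56124, and 27016 and 32649 CPM. Dpt, dermatopontin, a matrix protein of fibroblasts, was at 24.9 and 20.7 CPM under the label WT-Veh, 311 and 282 CPM under ob/ob-Veh and 53.1 and 45 CPM under ob/ob-Rosi, with effects of 3.50 (adjusted p = 0.00242) and -2.37 (adjusted p = 0.00704), beside 377, 2319 and 677 CPM in all other kept cells. Col1a1, a collagen chain, gave 3.34 (adjusted p = 0.00881). Of the 338 genes called higher in the iWAT ob/ob effect, 88 were at or above the level of all other kept cells and 235 below 1/3 of it, and 327 moved the same way in all other kept cells. How many of all tested genes did so was not counted, so these counts describe the called genes only. With cells that held a foreign UMI left out, the ob/ob effect called 167 genes and the Rosi effect 319, and 8 of 11 stromal markers were still called higher. The 12 stromal calls were 4 without ob/ob-Veh replicate 1 and 5 without ob/ob-Veh replicate 2, and the 7 lower Rosi calls were 0 without either of these, 4 without ob/ob-Rosi replicate 1 and 0 without ob/ob-Rosi replicate 2.

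The Trem2 programme was lower in iWAT too. Of 25 tested members, 8 fell in the ob/ob effect and 9 rose in the Rosi effect, with medians of -0.99 and 0.90. The calls were 0 and 0 without ob/ob-Veh replicate 1, 2 and 0 without ob/ob-Veh replicate 2, and in the Rosi effect 4 without ob/ob-Rosi replicate 2. Trem2 was at 226 and 349 CPM under the label WT-Veh, 65 and 18.3 CPM under ob/ob-Veh and 205 and 315 CPM under ob/ob-Rosi, with effects of -2.98 (adjusted p = 0.0245) and 2.85 (adjusted p = 0.0195). Fabp5 gave -3.46 (adjusted p = 0.00979) and 3.39 (adjusted p = 0.0125), and Lgals3 -2.38 (adjusted p = 0.00632) and 2.94 (adjusted p = 0.00704). Vsig4 was at 73.8 and 136 CPM under the label WT-Veh, 21.6 and 9.52 CPM under ob/ob-Veh and 106 and 120.0 CPM under ob/ob-Rosi, with effects of -2.96 (adjusted p = 0.00985) and 3.07 (adjusted p = 0.0119). Wfdc17, a small secreted inhibitor of the WAP family, was at 2521 and 2710.4 CPM under the label WT-Veh, 627 and 763 CPM under ob/ob-Veh and 3749 and 3425 CPM under ob/ob-Rosi, with effects of -2.13 (adjusted p = 0.0117) and 2.60 (adjusted p = 0.00936). Ccl8 was at 3297 and 1841 CPM under the label WT-Veh, 1882 and 2081 CPM under ob/ob-Veh and 5127 and 1749 CPM under ob/ob-Rosi, where the groups overlapped and the ob/ob effect was -0.59 (adjusted p = 0.509). Of 34 perivascular and resident genes, 0 rose and 3 fell in the ob/ob effect and 5 rose and 1 fell in the Rosi effect, where 6.38% of all genes rose and 4.18% fell. Between the classes, the iWAT ob/ob effect differed for 9 genes higher (0.0771% of 11670) and 19 lower (0.163%). For Rosi, 1 gene was higher (0.00857%) and 0 were lower (0%). With cells that held a foreign UMI left out, the split turned to 35 higher and 1 lower of 8288 genes for ob/ob, with 1 gene shared with the calls above, and to 2 higher and 28 lower for Rosi. With 1 library left out at a time, in the order WT-Veh replicates 1 and 2, ob/ob-Veh replicates 1 and 2 and ob/ob-Rosi replicates 1 and 2, the ob/ob calls numbered 188, 495, 0, 1, 81 and 65 and the Rosi calls 167, 229, 0, 1, 14 and 20.

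**Figure D5:**
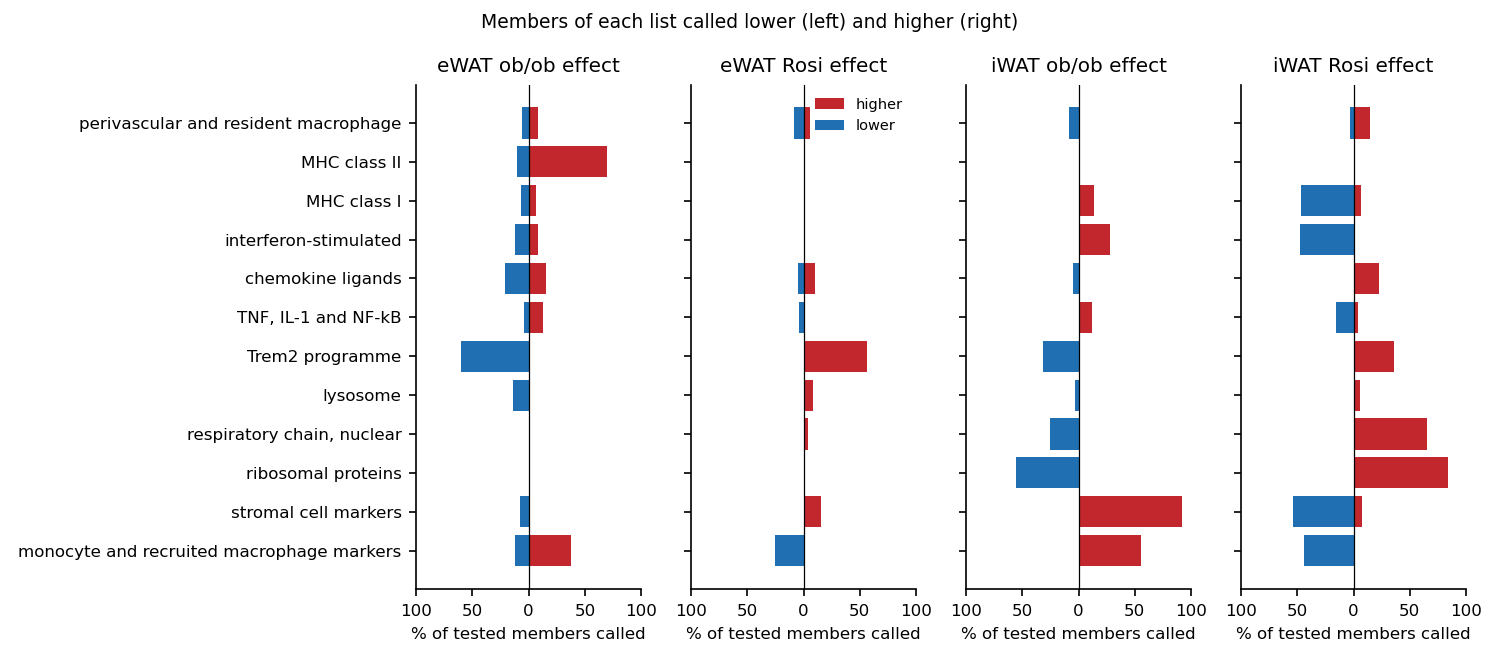
Share of the tested members of 12 gene lists called lower (left of 0) and higher (right of 0) in the chosen cells, for the ob/ob and Rosi effects in eWAT and iWAT. The Trem2 programme reaches left in both ob/ob effects and right in both Rosi effects, MHC class II reaches right in the eWAT ob/ob effect, and stromal, interferon-stimulated, ribosomal and respiratory chain genes are called mainly in iWAT.

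Some genes went one way in the ob/ob effect and the other way in the Rosi effect in both depots. In eWAT 40 genes rose in the ob/ob and fell in the Rosi effect and 67 did the reverse, and in iWAT 241 and 276 did so. Of 9514 genes tested in both depots, 9 rose and fell in this order in both (Plpp3, Sult1e1, Plbd1, Cfd, Birc3, Lsmem1, Fam43a, Hspa1b and Fn1) and 22 fell and rose in both, among them Trem2, Cd68, Wfdc17, Syngr1, Fabp5, Vsig4, Lgals3, Lgals1, Acp5, Cd63, Capg and Lrg1. Both effects contain the ob/ob-Veh libraries, which alone makes opposite signs likelier. Cfd is also on the list of adipocyte transcripts. In the chosen cells of eWAT it gave 154 and 116 UMIs in the ob/ob-Veh libraries. It gave 0 and 1 UMIs in the WT-Veh pair and 0 in each ob/ob-Rosi library, not scaled to library size. The part of RNA from other cells in the genes reversed in both depots was not tested. Plbd1, a phospholipase B-like lysosomal protein, was at 13.6 and 10.5 CPM under the label WT-Veh, 77.7 and 127 CPM under ob/ob-Veh and 15.5 and 14.1 CPM under ob/ob-Rosi in eWAT, with effects of 2.95 (adjusted p = 0.000299) and -2.67 (adjusted p = 0.00162), and at 11.8 and 39.1 CPM under the label WT-Veh, 109 and 201 CPM under ob/ob-Veh and 28.6 and 33.9 CPM under ob/ob-Rosi in iWAT. Acp5, the acid phosphatase TRAP, was at 51 and 57.2 CPM under the label WT-Veh, 7.49 and 7.52 CPM under ob/ob-Veh and 33.8 and 61.6 CPM under ob/ob-Rosi in eWAT and 61.1 and 65.3 CPM under the label WT-Veh, 6.34 and 7.69 CPM under ob/ob-Veh and 33.6 and 45.5 CPM under ob/ob-Rosi in iWAT. Between ob/ob-Rosi and WT-Veh, 0 genes were called higher (0%) and 0 lower (0%) by edgeR in either depot, with 245 genes in eWAT and 362 in iWAT at an unadjusted p under 0.05 and 2 and 19 called by DESeq2. Without WT-Veh replicate 2, the iWAT count was 49.

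Between the depots, averaged over the 3 groups, 54 of 11120 genes (0.486%) were higher and 67 (0.603%) lower in iWAT. Vsig4 was lower in iWAT, by -1.0 (SE 0.21, adjusted p = 0.0425), and Slc40a1 by -1.05 (adjusted p = 0.0425). C6 was higher, by 1.31 (adjusted p = 0.0184), and Mgl2 by 1.29 (adjusted p = 0.0109). For C6 this average did not hold in each group: under the label WT-Veh both iWAT libraries lay below both eWAT libraries. The depots also overlapped under the label ob/ob-Veh for Vsig4 and Mgl2. For Slc40a1 they overlapped under the labels WT-Veh and ob/ob-Rosi. The count of 121 calls was 19 without eWAT WT-Veh replicate 1, 26 without eWAT ob/ob-Veh replicate 2, 244 without iWAT WT-Veh replicate 2, and 30 to 55 without any of the others save iWAT WT-Veh replicate 1 (90). The deposited iWAT tables lacked the barcodes of high UMI count or mitochondrial share that the eWAT tables held. The same filter was applied to both depots before cells were chosen, so those barcodes entered no tested sum. Other differences in how the tables were made were not tested. The ob/ob effect differed between depots for 49 genes higher in iWAT (0.441%) and 15 lower (0.135%), together 0 without eWAT WT-Veh replicate 1 or iWAT ob/ob-Veh replicate 1, 3 without eWAT ob/ob-Veh replicate 2, 17 without eWAT ob/ob-Veh replicate 1 and 39 without iWAT ob/ob-Veh replicate 2. C6 fell in eWAT and stood at 129.9 and 121 CPM under the label WT-Veh, 335 and 298 CPM under ob/ob-Veh and 196 and 91.6 CPM under ob/ob-Rosi in iWAT, where its ob/ob effect of 1.13 (adjusted p = 0.0922) was not called, with a depot difference of 3.94 (SE 0.551, adjusted p = 0.0108). Mgl2 rose in eWAT and not in iWAT, with a difference of -2.45 (adjusted p = 0.0475). The Rosi effect differed for 0 genes higher (0%) and 0 lower (0%) by edgeR, with 1041 at an unadjusted p under 0.05 and 91 called by DESeq2, and 7 calls without iWAT WT-Veh replicate 1, 7 without iWAT WT-Veh replicate 2 and 6 without iWAT ob/ob-Rosi replicate 1.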

How the data were processed

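Single-cell RNA of the stromal vascular fraction was captured with 10x Genomics 3′ chemistry v3.1 and sequenced on a NovaSeq 6000. UMI counts per gene and barcode were deposited by the authors, who made them with Cell Ranger 3.0.2 on mm10. The 12 tables were read as deposited (31053 genes). Doublets were not removed, and removing Scrublet calls is one of the alternatives (in 4 libraries, where the automatic cut marked under 0.5% of cells, the highest 6% of scores were marked). UMI counts were summed per library over the chosen cells and tested with edgeR 4.0.16 in R 4.3.3 (TMM, filterByExpr, glmQLFit, 1 fit per depot with 3 residual degrees of freedom). The 12 rule genes stayed out of the tests. Only the ob/ob effect of the fit per depot was tried on simulated counts, with a single fixed spread for all genes. The class, depot and cell number fits were not tried on simulated counts. For class differences the library served as a block, and depot differences used all 12 libraries without a term for the mouse. The labels do not say whether the eWAT and iWAT libraries came from the same mice. Fold changes are relative to the median gene, since TMM scales each library. Positions are from GENCODE M21, matched for 30934 genes.

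Named genes were, per main comparison, the 6 largest called changes in each direction (at least 50 CPM, no overlap between groups), up to 2 called members of each of 30 lists per direction (at least 20 CPM) and all genes reversed in both depots. Members and lists were chosen with earlier results of these data known. Alternatives covered scaling, filters, thinning, thresholds, exclusions, DESeq2 and each library left out.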

Additional observations from a re-analysis of the deposited data

Results flagged for a closer look

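For 15 named genes, the ob/ob effect in Lyve1/Cd163/Cd209f macrophages differed between iWAT and eWAT by an interaction test (edgeR's quasi-likelihood test over 12 libraries). In the order iWAT minus eWAT, 9 differences were positive. These included C6 at 3.94 (adjusted p = 0.0108, with effects of -2.82 in eWAT and 1.13 in iWAT, the latter not called), Ifit2 at 4.38 (adjusted p = 0.0240), Rsad2 at 3.73 (adjusted p = 0.0408), Iigp1, an interferon-induced GTPase, at 3.47 (adjusted p = 0.0477) and Zbp1, a nucleic acid sensor, at 2.12 (adjusted p = 0.0458, with -1.33 in eWAT and 0.79 in iWAT). The other 4 were Col1a1 at 4.57 (adjusted p = 0.0202), Fbn1, fibrillin 1, at 3.26 (adjusted p = 0.0465), Lum, the proteoglycan lumican, at 3.15 (adjusted p = 0.0184) and Ace, angiotensin-converting enzyme, at 3.01 (adjusted p = 0.0374), and these stood higher in all other kept cells of the iWAT libraries labelled ob/ob-Veh than in the chosen cells.

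The negative differences were those of Lyz1 at -4.00 (adjusted p = 0.0108, with 3.29 in eWAT and -0.70 in iWAT), Mgl2 at -2.45 (adjusted p = 0.0475), Ccl24 at -2.29 (adjusted p = 0.0200), S100a4, a calcium-binding protein of motile cells, at -2.12 (adjusted p = 0.0240), Car3, a carbonic anhydrase of fat cells, at -6.28 (adjusted p = 0.0108) and Rnase2a, an eosinophil ribonuclease, at -9.57 (adjusted p = 0.0245). Car3 and Rnase2a rest on few counts, so their fitted size depends on the prior count. In eWAT, Car3 had 513 UMIs in the chosen cells labelled ob/ob-Veh against 2 in those labelled WT-Veh, a ratio of rates of 71.4 with an exact 95% interval of 19.7 to 591 that covers counting error only. Without eWAT WT-Veh replicate 1 or iWAT ob/ob-Veh replicate 1, 0 genes were called for this difference.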

How the results depend on the processing

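Counts of called genes depended on the setting, in the order eWAT ob/ob, eWAT Rosi, iWAT ob/ob and iWAT Rosi effect where all are given. No named gene changed direction in any alternative: 4285 of their values kept their side of the threshold and 968 lost the call. No filter on low counts gave 877, 558, 1804 and 2353 calls, 17 for eWAT ob/ob-Rosi against WT-Veh, 123 for that contrast in iWAT, 564, 444 and 202 for the depot and its ob/ob and Rosi differences, and 173 and 114 for the iWAT class differences. DESeq2 gave 263 for the eWAT Rosi and 1059 for the iWAT ob/ob effect, 2 and 19 for ob/ob-Rosi against WT-Veh, 286, 205 and 91 between depots, 139 and 143 for the eWAT class differences and 16 for the iWAT Rosi class difference. Library size alone gave 48 and 5 for the iWAT class differences. Cells thinned to 700 UMIs gave 247 in eWAT ob/ob, 382 and 719 in iWAT, 1 for eWAT ob/ob-Rosi against WT-Veh, 16 and 27 between depots, 124 and 106 for the eWAT classes and 6 for the iWAT Rosi class. Removing doublets gave 2 for eWAT ob/ob-Rosi against WT-Veh, 38 for the depot difference of the ob/ob effect and 5 for the iWAT Rosi class. A threshold of 5 UMIs gave 57 for the depot and 1 for the Rosi difference between depots, and a threshold of 2 UMIs 189 for eWAT Rosi and 31 for the ob/ob difference between depots. The rule on cells thinned to 2000 UMIs gave 243 for eWAT Rosi, 160 for its class difference and 96 and 140 for the iWAT classes. Leaving out cells with a foreign UMI gave 167 and 319 in iWAT, 17 and 6 between depots, 56 and 33 for the eWAT classes and 30 for the iWAT Rosi class. All 12 libraries in 1 fit gave 168, 51, 1328 and 2005. The rule without its 4 exclusions, added after seeing the data, gave 1494, 1772, 1190 and 2088, with 1089, 40 and 8 between depots, 538 and 605 for the eWAT classes and 1 and 0 for the iWAT classes.

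With the replicate block the counts were 805, 490, 1477 and 2287, 2 for eWAT ob/ob-Rosi against WT-Veh, and 23, 230 and 72 between depots. For each gene the difference of replicate 1 minus replicate 2 was taken within a group and correlated between groups over genes. These correlations of differences were 0.178, 0.167 and 0.261 in eWAT but -0.0198, 0.553 and 0.0303 in iWAT. With 2 numbers a group, and no shared animal or batch in the labels, it cannot be told whether the numbers pair the libraries. The class differences were not run with this block, since the library is their block.

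The eWAT ob/ob effect on cell numbers passed in the fit on macrophage barcodes (2.17), with the rule on thinned cells (1.32) and with the replicate block (1.76). The Rosi effect passed with these (-2.78, -2.05 and -2.47), at 5 UMIs (-2.56) and without exclusions (-1.27). With 1 library left out, log2 changes in cell number ranged from 1.30 to 2.07 and from -3.55 to -1.49 in eWAT, and from -0.147 to 2.32 and from -0.595 to -0.0576 in iWAT. Calls ranged from 36 to 587, 38 to 220, 30 to 1723 and 0 to 2329 for the main effects, from 0 to 3 and 0 to 49 for ob/ob-Rosi against WT-Veh, from 19 to 244, 0 to 91 and 0 to 7 between depots, and from 175 to 369, 27 to 465, 0 to 495 and 0 to 229 for the class differences. The cause of these moves was not tested.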

Other observations

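Further gene lists are given here beside the share of calls over all genes. Over all genes tested, 1.95% rose and 1.97% fell in the eWAT ob/ob effect, 0.796% and 0.493% in the eWAT Rosi effect, 3.02% and 2.7% in the iWAT ob/ob effect and 6.38% and 4.18% in the iWAT Rosi effect. Of 19 iron and haem genes, 1 rose and 0 fell in the eWAT ob/ob effect, and in the iWAT Rosi effect 3 rose and 1 fell. The latter was Cp, the ferroxidase ceruloplasmin, at 165 and 182 CPM under the label WT-Veh, 500.4 and 384 CPM under ob/ob-Veh and 132 and 76.3 CPM under ob/ob-Rosi, with a Rosi effect of -1.88 (adjusted p = 0.0157). Blvrb, biliverdin reductase B, went the other way in iWAT, with effects of -1.84 (adjusted p = 0.0422) and 2.18 (adjusted p = 0.0196). Of 36 PPAR and LXR targets in iWAT, 0 rose and 2 fell in the ob/ob effect, and 4 rose and 0 fell in the Rosi effect. Of 35 such targets in eWAT, 1 rose and 4 fell in the ob/ob effect, and 2 rose and 1 fell in the Rosi effect. Pdk4, a kinase that restrains pyruvate oxidation and a known target of PPARs, was at 7.29 and 2.42 CPM under the label WT-Veh, 48.2 and 23.5 CPM under ob/ob-Veh and 6.08 and 1.76 CPM under ob/ob-Rosi, with effects of 2.65 (adjusted p = 0.0167) and -2.82 (adjusted p = 0.0419). Fabp4, another target, was at 606 and 742 CPM under the label WT-Veh, 182 and 281 CPM under ob/ob-Veh and 537 and 556 CPM under ob/ob-Rosi, with effects of -1.64 (adjusted p = 0.00756) and 1.34 (adjusted p = 0.0364), beside 5092, 4529 and 4686 CPM in all other kept cells. Cholesterol synthesis had 1 of 17 genes lower in the eWAT ob/ob effect and 1 of 19 in the iWAT ob/ob effect, and 0 in either Rosi effect.

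Heat shock and early response genes, listed as the early response to tissue dissociation, had 2 of 22 higher in the eWAT ob/ob effect, with a median of 0.55. In the eWAT Rosi effect 1 was lower, with a median of -0.44. The list summed to 20542 and 25208, 39784 and 30779, and 22420 and 21685 CPM in the chosen cells of the 3 eWAT groups. The part of tissue handling in these values was not tested. In iWAT 1 rose and 2, Dnajb1 and Ier3, fell in the ob/ob effect, with a median of -0.33, and 4 rose and 1 fell in the Rosi effect. Hspa1b, an inducible HSP70, was at 56.9 and 46.7 CPM under the label WT-Veh, 221 and 140.4 CPM under ob/ob-Veh and 54.7 and 59.9 CPM under ob/ob-Rosi in eWAT, with effects of 1.70 (adjusted p = 0.00909) and -1.59 (adjusted p = 0.0282). In iWAT it was at 492 and 389 CPM under ob/ob-Veh, above the 4 other libraries, with effects of 1.38 (adjusted p = 0.037) and -2.14 (adjusted p = 0.0119). It was also higher in all other kept cells labelled ob/ob-Veh, at a mean of 19.6, 141 and 27.4 CPM in eWAT and 34.2, 128 and 23.9 CPM in iWAT over the 3 groups. Chemokines in the iWAT Rosi effect had 5 of 22 higher, among them Pf4 at 1362 and 2361 CPM under the label WT-Veh, 545 and 1349.9 CPM under ob/ob-Veh and 2785 and 4088 CPM under ob/ob-Rosi (2.10 (adjusted p = 0.0336)). Glycolysis had 1 of 22 genes lower in the eWAT ob/ob effect and 1 higher in the Rosi effect, Pkm, pyruvate kinase, at 266 and 284 CPM under the label WT-Veh, 143 and 142 CPM under ob/ob-Veh and 246 and 363 CPM under ob/ob-Rosi. Lysosomal genes had 5 of 35 lower in the eWAT ob/ob effect and 3 higher in the Rosi effect.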
